A study of Mus musculus with 22 samples.

Results

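Potassium channel genes were described here across 6 cell types of the mouse brain. The members were every gene with a protein-coding transcript in the authors' index whose symbol begins with Kcn, followed by letters and a number, which took in 93 of the 21804 genes with such a transcript and of the 55385 genes of the index. They were pore-forming subunits and their auxiliary subunits, in 13 families. The rule itself uses gene symbols and no measured level.

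The study asked how transfer RNA supply and codon use differ between brain cell types, and for this it sequenced messenger RNA bound to ribosomes. All mice were 6 weeks old and carried 1 Rpl22 Fl allele, which puts an HA tag on a ribosomal protein wherever Cre recombinase is present, so that ribosomes of the chosen cells can be pulled down with an antibody. Rbp4-Cre gave dentate gyrus granule cells from hippocampus and layer V cortical neurons from cortex, and Gabra6-Cre gave cerebellar granule cells from cerebellum. Dlx6a-Cre gave inhibitory interneurons from hippocampus, with 2 mice pooled in each library, while Aldh1-cre gave astrocytes and Tmem119-cre gave microglia, both from cortex. According to the study's methods these glial drivers were inducible lines (Aldh1l1-cre/ERT2 and Tmem119 cre/ERT2), and mice of inducible lines were given tamoxifen some weeks before the tissue was taken, so treatment and glial type cannot be told apart in the comparison with neurons. Each cell type had 3 replicates, and no group lacked Cre or the tagged ribosome. The comparisons below share libraries, so they are not independent of each other.

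Potassium channels let potassium ions leave or enter the cell and so set the resting potential, end the action potential and fix how often a neuron can fire. Voltage-gated (Kv) channels open on depolarization, with Kv3 channels known for the brief spikes of fast-firing neurons and Kv4 channels for the A-type current of dendrites. Calcium-activated channels couple calcium entry to repolarization, inward rectifiers and two-pore leak channels act near rest, and astrocytes take up potassium mainly through inward rectifiers.

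Levels are given as TPM (a level scaled for transcript length and for the size of the library, so that all libraries have the same total), summed over the transcripts of a gene, as mean ± SD of 3 replicates. Differences were tested on summed estimated counts by edgeR's quasi-likelihood test over the 20524 genes that passed a filter on low counts, and a gene was called at an adjusted p (Benjamini-Hochberg) of at most 0.05 with a log2 fold change of at least 1 in size. Of the 93 members, 84 passed the filter. The other 9 (Kcna7, Kcna10, Kcne1, Kcnj1, Kcnj15, Kcnk16, Kcnk18, Kcnmb3 and Kcnv2) had too few counts to test. The libraries used held between 38270477 and 71440915 estimated counts each.

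The labelled cell types were checked against marker genes. Cx3cr1 was at 1652 TPM in microglia and at most 5.94 elsewhere, Gabra6 was at 3895 TPM in cerebellar granule cells and at most 0.19 elsewhere, and Aqp4 was at 416.3 TPM in astrocytes and at most 6.58 elsewhere. Prox1 was highest in dentate gyrus granule cells (167.0 TPM), Gad1 in inhibitory interneurons (2029 TPM) and Fezf2 in layer V cortical neurons (85.5 TPM), although the 4 layer V markers summed to more in cerebellar granule cells (728 TPM) than in layer V neurons (247.4 TPM). Other cells also left traces. Summed oligodendrocyte markers were highest in the interneuron libraries, at 2674 TPM (2612 to 2795), and 1 astrocyte library stood apart, with the choroid plexus gene Ttr at 3635 TPM in replicate 1 against 4.99 and 11.61 in the others. All interneuron and microglia libraries were sequenced in batch 2 and the other 12 in batch 1, so batch and these cell types cannot be told apart except through the 4 replicates that were sequenced in both.

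The families were spread unevenly over the cell types. Summed over the 93 members, cerebellar granule cells carried the most channel mRNA, at 3770 ± 95 TPM (SD, n = 3), followed by dentate gyrus granule cells at 3327 ± 155 TPM and interneurons at 3015 ± 82 TPM. Layer V neurons were at 2456 ± 54 TPM, astrocytes at 1963 ± 98 TPM and microglia at 644.5 ± 40.6 TPM. The high total of cerebellar granule cells was carried by few genes: 41 members reached 1 TPM there, against 63 to 68 in each other type, and the 5 highest members made up 56.7% of the sum. In astrocytes the 5 highest made up 59.8%, and in the remaining types 30.9% to 40.6%. In all 6 types 37 members reached a mean of 1 TPM, and 18 members reached it in none. The shares of all genes that reached 1 TPM are not given here, so these counts are not set against a background. Traces of other cells can add to the counts, and their part was not tested.

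**Figure D1:**
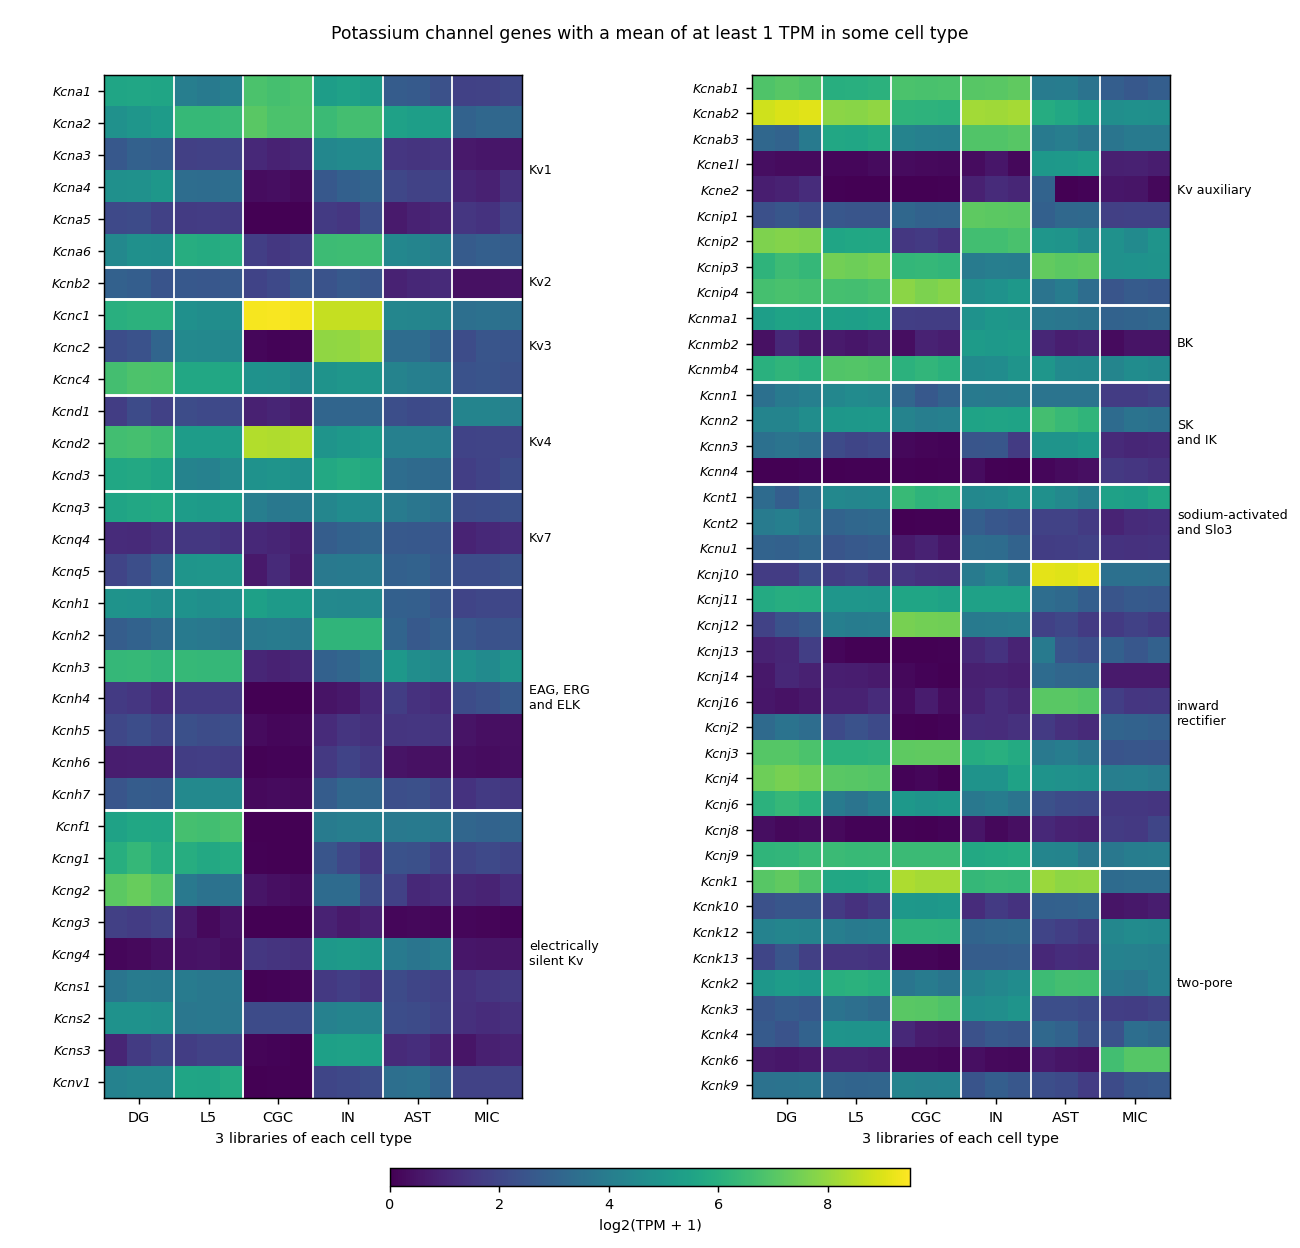
Level of the potassium channel genes that reached a mean of 1 TPM in at least 1 cell type, apart from those not reported here, as log2(TPM + 1) by colour, in the 18 libraries (3 columns per cell type), with the genes in rows by family. DG, dentate gyrus granule cells; L5, layer V cortical neurons; CGC, cerebellar granule cells; IN, inhibitory interneurons; AST, astrocytes; MIC, microglia. The cerebellar column is near 0 for most electrically silent, EAG, ERG and ELK genes and bright for Kcnc1, and Kcnj10 is bright in astrocytes alone.

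Each cell type drew its channel mRNA from different families. Kv3 channels made up 34.65% of the summed channel TPM in cerebellar granule cells and 27.4% in interneurons, against 12.1% in dentate gyrus granule cells and 5.89% in layer V neurons. Inward rectifiers made up 39.5% in astrocytes and 7.86% to 15.6% in the other types, and two-pore channels made up 30.2% in microglia. Auxiliary subunits of Kv channels held the largest share in dentate gyrus granule cells (30.65%), layer V neurons (27.7%) and interneurons (27.6%). These are shares of mRNA, and in bulk libraries of this kind a lower level can mean fewer cells of a kind or less RNA per cell, which cannot be told apart.

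**Figure D2:**
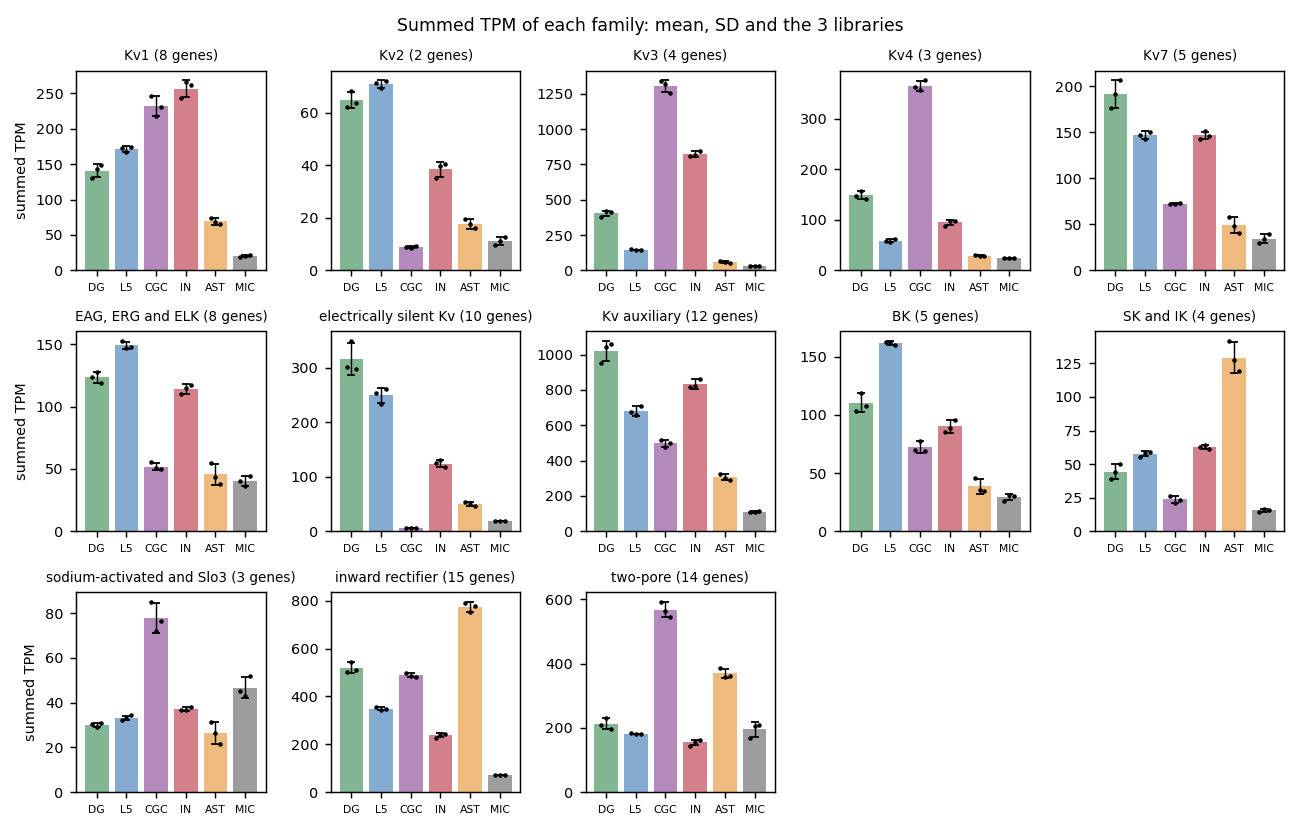
Summed TPM of the 13 families (panels, each with its own linear axis from 0) in the 6 cell types, abbreviated as above. Bars are means, error bars SD and points the 3 libraries. Kv3 was highest in cerebellar granule cells (1306 TPM), electrically silent subunits fell to 5.68 TPM there against 316.4 TPM in dentate gyrus granule cells, and inward rectifiers were highest in astrocytes (774.7 TPM).

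Neurons were compared with glia, with each cell type weighted equally. Of the 84 members tested, 34 were higher in neurons (40.5%), against 15.9% of all genes tested, and 24 were lower (28.6%), against 30.3% of all genes. The median log2 difference, neurons minus glia, was 0.41 over the members and -0.18 over all genes. Of 6 tested Kv1 genes 5 were higher in neurons and 1 lower, of 4 Kv3 genes 3 were higher and 0 lower, and of 3 Kv4 genes 2 were higher and 1 lower. The inward rectifiers were split, with 5 of 13 higher and 6 lower, as were the two-pore genes, with 5 of 12 higher and 5 lower.

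Kcnab1, a beta subunit of Kv1 channels, showed the neuronal pattern clearly. It was at 117.9, 128.4 and 116.5 TPM in dentate gyrus granule cells and at 128.6, 135.0 and 143.0 TPM in interneurons. It was at 111.6, 109.4 and 111.8 TPM in cerebellar granule cells and at 61.85, 63.51 and 67.11 TPM in layer V neurons. Every neuronal library thus lay above every glial one, since astrocytes ran from 11.1 to 14.7 TPM and microglia from 5.10 to 6.23 TPM. The log2 difference was 3.39 (standard error 0.06, edgeR adjusted p = 4.4e-19).

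Kcnj3, a subunit of the channels that G proteins open, differed by 3.34 on the log2 scale. Kcnd2, a Kv4 pore subunit, differed by 3.33 and Kcnip4, a calcium-binding Kv4 partner, by 3.30. Kcnj6 (3.04) and Kcnj9 (2.12), which join Kcnj3 in the same channels, were also called higher in neurons. Kcnq3, a subunit of the channels behind the M-current that limits repetitive firing, was higher by 1.82, whereas Kcnma1, the pore of the BK channel, lay just short of the fold needed for a call (0.93).

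The members lower in neurons were of more than 1 kind. Kcnf1 (-1.07) and Kcnv1 (-1.29) were highest in layer V neurons, at 102.9 and 49.4 TPM, but at most 0.031 TPM in cerebellar granule cells. The comparison takes the mean log2 level of the neuronal types, so a gene near 0 in 1 of them can be called lower. Others were high in 1 glial type. Kcnj16 (log2 difference -4.93), Kcnj10 (-4.65) and the auxiliary subunit gene Kcne1l (-4.79) were high in astrocytes, and Kcnk6 (-4.59) in microglia. Kcnj13 (-5.18), an inward rectifier of choroid plexus, differed by the most on this side. It was at 4.94 to 6.68 TPM in microglia and was not called between the glial types (0.33, astrocytes minus microglia, edgeR adjusted p = 0.44). In the astrocyte library with high Ttr it was at 13.96 TPM, against 4.46 and 3.85 TPM in the other astrocyte libraries. Kcne2, also a choroid plexus gene, was called lower (-2.86, edgeR adjusted p = 0.012), yet it was at 7.10 TPM in that same library and at 0 and 0.071 TPM in the other astrocyte libraries. Without that library its difference was 0.07 (edgeR adjusted p = 1).

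Levels of neuronal genes in glial libraries need a measure of background. The 5 pan-neuronal markers stood in astrocytes at 10.1% to 18.6% of their neuronal mean and in microglia at 3.85% to 11.4%. Of the 56 members with a neuronal mean of at least 5 TPM, 18 stood at or below the highest of these marker percentages in astrocytes and 27 did so in microglia. Those above their neuronal mean were Kcng4, Kcnip3, Kcnk1, Kcnk2, Kcnn2 and Kcnj10 in astrocytes, and Kcnt1 and Kcnj10 in microglia. The neuronal mean took in all neuronal types, whereas both glial types came from cortex, so these percentages depend on which neurons hold a gene. In astrocytes Kcnc1 was at 6.51% of its neuronal mean, yet at 18.8 TPM against 24.9 TPM in layer V neurons. Kcnv1 was at 52.4%, yet at 7.30 to 10.6 TPM against 45.3 to 55.7 TPM in layer V neurons. Kcnk1 and Kcnip1 were called higher in neurons but changed sign within batch 1, which lacks both microglia and interneurons (log2 differences of -1.21 and -0.8). Kcnip1 was at 137.4 TPM in interneurons, 7.75 TPM in astrocytes and 3.85 to 8.09 TPM in the libraries of the other neurons. Within batch 1, 24 members were called higher in neurons and 27 lower, and within batch 2, 37 and 19. These fits held other cell types and tested 19079 and 22382 genes. Their shares over all genes are not given here, so these counts are not set against a background.

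**Figure D3:**
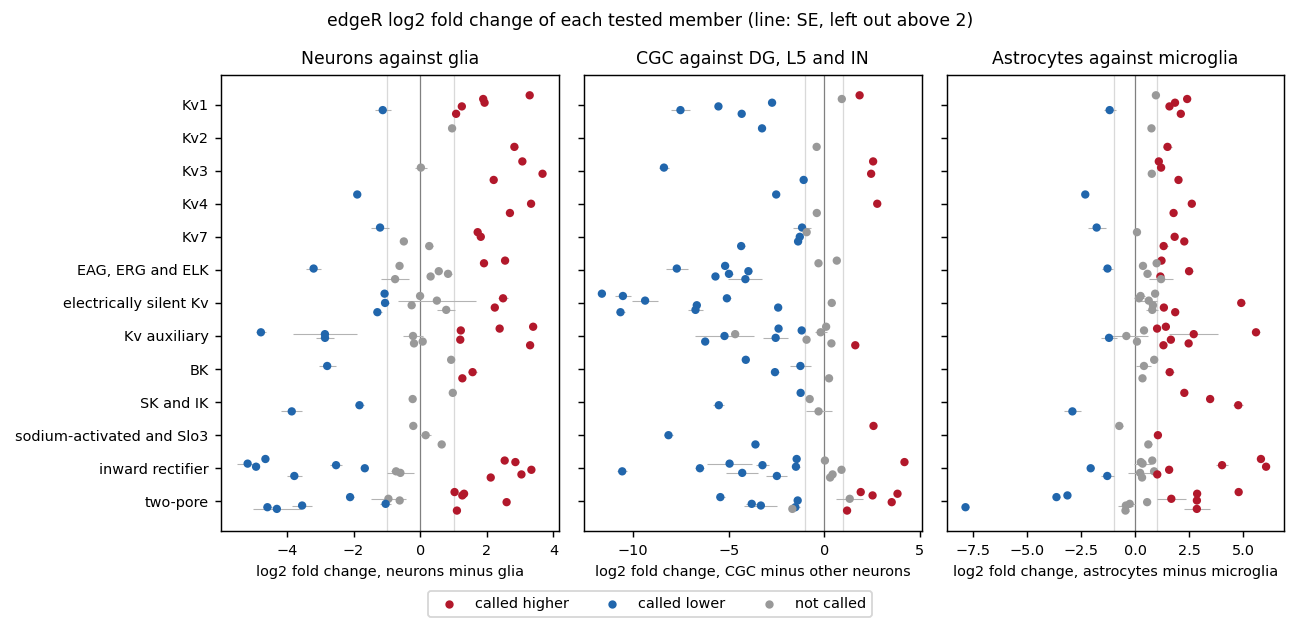
Log2 fold change of each of the 84 tested members (points, in rows by family) in 3 comparisons, with its standard error as a line where that was under 2. Red points were called higher, blue points lower and grey points neither, and the pale lines mark a log2 change of 1 in either direction. In the middle panel 51 points are blue and lie as far down as -11.63 (Kcnf1).

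Among neurons, cerebellar granule cells differed most in their channels. Here and below, a neuronal type was set against the mean log2 level of the other 3, so a gene near 0 in 1 of those 3 can be higher by a large log2 difference without being highest. Likewise, a gene high in 1 of those 3 can be lower without being lowest. Against the other 3 neuronal types, 12 members were higher (14.3%, against 14.5% of all genes) and 51 were lower (60.7%, against 29.1% of all genes). The median log2 difference was -1.59 over the members and -0.21 over all genes, and -1.50 over the members when those without a count in these cells were set to the limit that 3 counts over the group allow. The lower members included 8 of 9 tested electrically silent subunits, which join Kv2 pores and change how they open, and 6 of 8 EAG, ERG and ELK genes.

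Kcnf1, an electrically silent subunit (chromosome 12, 17172100 to 17176888), was listed at 0.019, 0 and 0.015 TPM in the cerebellar libraries. It was at 103.0, 97.0 and 108.8 TPM in layer V neurons, at 43.97, 49.48 and 48.05 TPM in dentate gyrus granule cells and at 14.43, 15.79 and 16.02 TPM in interneurons. No cerebellar library came near any other neuronal one. Kcnv1 (-10.66) and Kcng1 (-10.54) of the same family behaved likewise, and Kcnj4, a strong inward rectifier, fell from 173.0 TPM in dentate gyrus granule cells and 128.6 TPM in layer V neurons to 0.059 TPM (-10.57). Kcnip2, a Kv4 partner at 205.2 TPM in dentate gyrus granule cells, was at 1.86 ± 0.22 TPM in cerebellar granule cells.

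Of 12 tested two-pore genes 5 were higher in cerebellar granule cells and 5 lower, and of 4 Kv3 genes 2 were higher and 2 lower. Kcnc1 (chromosome 7, 46396497 to 46438704), a Kv3 pore, reached 657.6, 670.0 and 647.2 TPM, and the next highest type was interneurons at 404.7, 401.4 and 406.5 TPM. The libraries of the 2 types did not overlap (log2 difference 0.73, standard error 0.05, edgeR adjusted p = 8.3e-10), but the step was below the fold needed for a call. Kcnj12, an inward rectifier, reached 184.6, 176.9 and 173.1 TPM, and no other library passed 16.3 TPM (log2 difference 4.20 against the other neurons). Kcnk10 (3.83), Kcnk3 (3.53) and Kcnk12 (2.53), all two-pore genes, and Kcnd2 (2.77) were further members of this group, as was Kcnk3's relative Kcnk9 (1.19), both known as acid-sensitive leak channels of these cells. Kcna1, a Kv1 pore of axons, was at 109.2 ± 4.6 TPM and higher by 1.85.

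Dentate gyrus granule cells shared the granule cell name but not this pattern. Against the other neurons, 30 members were higher (35.7%, against 17.0% of all genes) and 11 were lower (13.1%, against 8.59% of all genes), and the median log2 difference was 0.35 over the members and 0.10 over all genes. The higher members included 7 of 9 electrically silent subunits and 7 of 13 inward rectifiers. Some of these inward rectifiers were low even there, with Kcnj5, Kcnj8 and Kcnj14 at 0.16 to 1.07 TPM and Kcnj13 at 0.87 to 2.39 TPM. Choroid plexus markers summed to 161.8 TPM in dentate gyrus granule cells, 209.2 TPM in interneurons, 37.1 TPM in cerebellar granule cells and 5.70 TPM in layer V neurons. Their part in these calls was not tested. Kcng2, an electrically silent subunit, was at 135.9, 154.9 and 126.1 TPM in dentate gyrus granule cells, with no other library above 13.3 TPM (log2 difference 4.90, standard error 0.14, edgeR adjusted p = 1.4e-15).

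Kcng1 (5.53), Kcnj4 (4.69), Kcnf1 (4.03) and Kcnip2 (3.40) were also called higher, and all were lowest in cerebellar granule cells. Kcnf1 was nevertheless lower in dentate gyrus granule cells than in layer V neurons (log2 difference -1.34), and for Kcng1 (0.13, edgeR adjusted p = 0.59) and Kcnj4 (0.20, edgeR adjusted p = 0.17) no difference between these types was detected. Kcnab2, a beta subunit of Kv1 channels, was the most abundant member of these cells at 447.7, 491.8 and 538.1 TPM (1.47). The next highest type for Kcnab2 was interneurons at 290.4 ± 8.0 TPM, and layer V neurons at 230.1 ± 7.9 TPM showed no detectable difference from them in counts, which are not scaled by transcript length (log2 difference -0.01, edgeR adjusted p = 0.88). Kcnj12 (-3.14), Kcnk3 (-2.68), Kcnt1 (-2.49) and Kcnab3 (-2.35) were lower in dentate gyrus granule cells.

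In layer V cortical neurons, 35 members were higher than in the other neurons (41.7%, against 17.3% of all genes) and 10 were lower (11.9%, against 9.21% of all genes). The median log2 difference was 0.50 over the members and 0.04 over all genes. The higher members included 6 of 8 EAG, ERG and ELK genes, of which Kcnh7, an ERG pore, was at 21.28, 20.91 and 21.00 TPM, with no other library above 7.91 TPM (log2 difference 3.76). Kcnv1 (6.21), Kcnf1 (5.82), Kcng1 (5.36) and Kcnj4 (4.42) were called higher as well, with cerebellar granule cells under 0.13 TPM for each. Kcnv1 and Kcnf1 were highest in layer V neurons, at 49.4 and 102.9 TPM, whereas Kcng1 was at 56.2 TPM against 66.7 TPM in dentate gyrus granule cells and Kcnj4 at 128.6 against 173.0 TPM. Kcnq5, a Kv7 pore at a mean of 30.6 TPM, and Kcnk4 (3.83), a stretch-sensitive two-pore channel whose exons overlap Catsperz on the same strand, were also among the genes higher in these cells.

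Among Kv3 genes, Kcnc1 was lower in layer V neurons. It was at 25.96, 24.34 and 24.50 TPM (log2 difference -2.82). Kcna1 (-1.71) and Kcnip1 (-1.53) were lower too, and every library of layer V neurons lay below every other neuronal library for Kcnc1 and Kcna1. This did not hold for Kcnip1, which was at 4.69 to 4.97 TPM in layer V neurons and 3.85 to 4.84 TPM in dentate gyrus granule cells. In interneurons Kcnip1 was at 133.9 to 140.7 TPM.

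In inhibitory interneurons, 33 members were higher than in the 3 excitatory types (39.3%, against 18% of all genes) and 11 were lower (13.1%, against 6.64% of all genes). The median log2 difference was 0.53 over the members and 0.08 over all genes. Kcnc2, a Kv3 pore (chromosome 10, 112271121 to 112467024), was at 239.2, 251.2 and 279.1 TPM, while layer V neurons were at 20.1 to 21.1 TPM, dentate gyrus granule cells at 3.74 to 7.57 TPM and cerebellar granule cells at 0.062 to 0.114 TPM. The interneuron libraries stood far above the rest, with a log2 difference of 6.86 (standard error 0.13, edgeR adjusted p = 8.3e-18).

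Kcnmb2, a BK channel subunit that inactivates the channel (chromosome 3, 31902507 to 32200180), was at 35.88, 33.49 and 36.40 TPM and at no more than 1.16 TPM in any other library (log2 difference 5.93 against the other neurons). Kcng4 (5.91), Kcns3 (5.81) and Kcnip1 (4.50) followed, and Kcnip1, a Kv4 partner, was at 133.9 to 140.7 TPM. Kcnh2, an ERG pore, was at 72.5 to 73.3 TPM and higher by 2.68. Kcnip3 (-2.91), Kcnip4 (-2.40), Kcnmb4 (-1.92) and Kcnd2 (-1.87) were lower in interneurons. Kcnj10, known from astrocytes and oligodendrocytes, was also called higher (2.64, at 13.1 to 18.1 TPM). The libraries that hold it had the highest oligodendrocyte markers (Mbp at 1184 TPM), and the part of these cells in the result was not tested.

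The glial types were compared with each other. In astrocytes 41 members were higher than in microglia (48.8%, against 23.1% of all genes) and 11 were lower (13.1%, against 21.1% of all genes). The median log2 difference was 0.99 over the members and 0.04 over all genes. The pan-neuronal markers summed to 957.8 TPM in astrocytes and 401.4 TPM in microglia. Their part in these calls was not tested. The astrocyte genes described next were inward rectifiers, two-pore channels and calcium-activated channels.

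The inward rectifiers Kcnj10 and Kcnj16, whose products form the main potassium uptake channel of astrocytes, came first. Kcnj10 was at 556.8, 527.8 and 579.7 TPM in astrocytes and at 10.46, 10.47 and 9.96 TPM in microglia (log2 difference 5.81, standard error 0.16, edgeR adjusted p = 8.2e-16). Kcnj16 was at 132.7, 133.4 and 124.3 TPM against 2.36, 1.85 and 1.91 TPM (6.05). The 2 genes thus showed the same split, although they lie on chromosomes 1 and 11.

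Among two-pore genes, Kcnk1 was at 268.1, 233.8 and 244.3 TPM in astrocytes against 9.03 to 9.56 TPM in microglia (4.78), and no difference in counts was detected against cerebellar granule cells (305.6 ± 15 TPM, log2 difference 0.07, cerebellar granule cells minus astrocytes, edgeR adjusted p = 0.34). Kcnk2, a stretch-sensitive two-pore channel, was at 90.8 to 99.3 TPM (2.85). Among the SK genes, small-conductance channels opened by calcium, Kcnn3 (4.76), Kcnn2 (3.46) and Kcnn1 (2.26) were all higher in astrocytes, with Kcnn2 at 73.7 to 101.0 TPM. Of the TPM of Kcnn3 in astrocytes, 66.3% (63.4% to 68.9%) came from transcripts annotated as not coding. Kcnn4, the intermediate-conductance channel of immune cells, went the other way (-2.92) and was low throughout, at 1.53 to 1.96 TPM in microglia.

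Microglia were marked by a single abundant channel gene. Kcnk6 (chromosome 7, 29221926 to 29232515), a two-pore channel, was at 97.6, 126.7 and 127.6 TPM in microglia and below 0.85 TPM in every other library. It was lower in astrocytes by 7.87 on the log2 scale (standard error 0.16, edgeR adjusted p = 1.4e-17), and all of its TPM came from protein-coding transcripts. Kcnk13, the two-pore channel known from work on microglial surveillance, was at 17.32, 17.27 and 16.03 TPM against 1.16 to 1.36 TPM in astrocytes, and Kcnd1, a Kv4 pore, at 17.2 to 18.5 TPM against 3.38 to 3.86 TPM. Kcnk12 (-3.15, astrocytes minus microglia) and Kcnj2 (-2.07) were also higher in microglia. Kcnj8, the pore of the vascular ATP-sensitive channel and a gene of pericytes, was higher in microglia too (-1.31, at 1.99 to 3.00 TPM). The 4 mural cell markers summed to 276.6 TPM (229.8 to 314.3) in microglia and 105.1 TPM in astrocytes, and their part in the result was not tested.

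The second gene by level in microglia needs a qualification. Kcnt1, a sodium-activated channel, was at 42.5, 40.3 and 48.9 TPM there, but 72.6% of this came from transcripts annotated as not coding (69.3% to 74.7%), against 21.75% in cerebellar granule cells, where Kcnt1 was highest at 77.1 TPM. The share was also high in astrocytes (61.5%) and dentate gyrus granule cells (59.3%). The same held in part for Kcnh3, with 46.2% in microglia against 4.02% in layer V neurons, and for Kcnab3, with 57.6%. For Kcnk13 and Kcnj10 the share was 0%. When only protein-coding transcripts were counted, Kcnt1 turned from -0.21 to 0.37 on the log2 scale in neurons against glia, and neither value was called.

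Members highest in 1 cell type were defined as those called higher there than in each of the other 5 types. There were 43 such members (51.2% of the 84), against 31.7% of all genes. Some stayed under 1 TPM even in that type. These were Kcnh8 in interneurons (0.27 TPM), Kcnj5 in dentate gyrus granule cells (0.29 TPM), Kcnk7 in astrocytes (0.44 TPM) and Kcne3 in layer V neurons (0.58 TPM). In microglia they were Kcnq1 (0.475 TPM) and Kcne4 (0.88 TPM). Cerebellar granule cells, interneurons and microglia had 8 each (9.52%), against 4.45%, 2.32% and 12.9% of all genes, astrocytes had 7 (8.33%), against 7.13%, and dentate gyrus granule cells and layer V neurons had 6 each (7.14%), against 2.25% and 2.60%. The microglial share was therefore below its background and the astrocyte share near it. The smallest of the 5 pairwise log2 differences was 7.17 for Kcnk6 and 1.14 (Kcnh4) to 2.92 (Kcnn4) for the other microglial members, and among the astrocyte members it ran from 1.36 (Kcnn2) to 6.05 (Kcnj16). The top value of each other type was 5.23 for Kcnmb2 in interneurons, 3.36 for Kcnj12 in cerebellar granule cells, 2.98 for Kcng2 in dentate gyrus granule cells and 1.95 for Kcnh7 in layer V neurons.

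**Figure D4:**
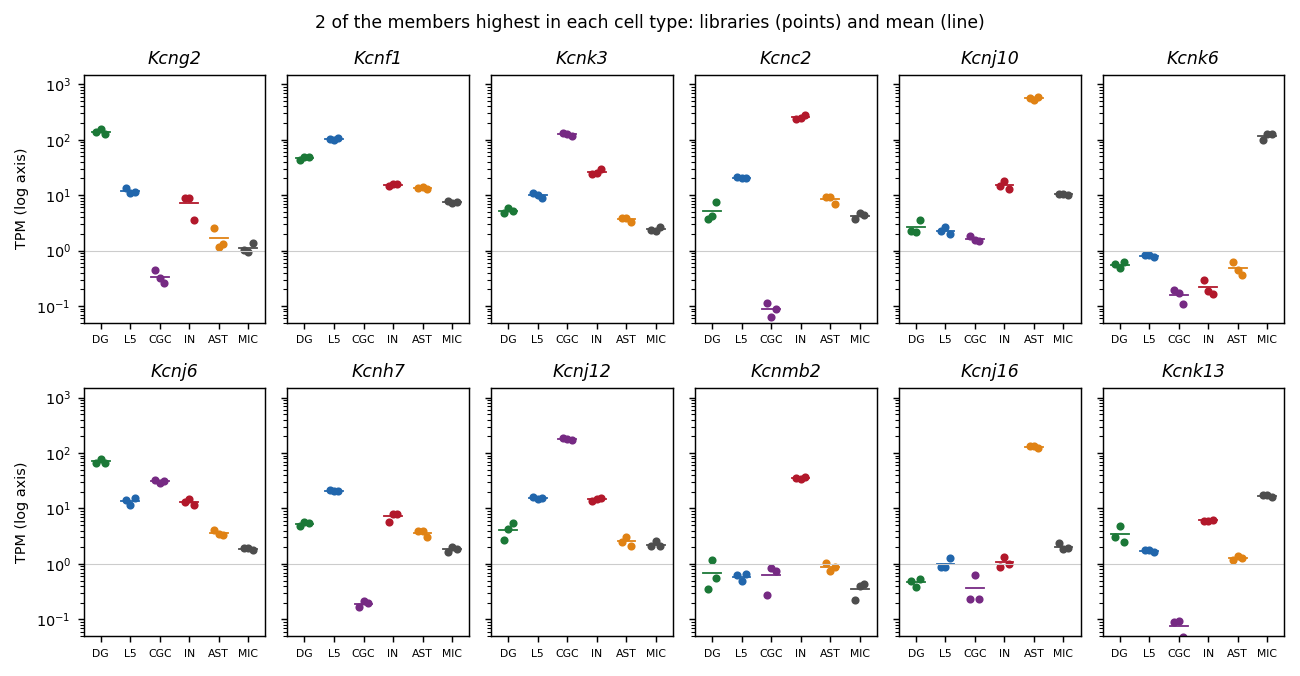
TPM on a logarithmic axis of 2 members highest in each cell type (columns from left to right, DG, L5, CGC, IN, AST and MIC), with the 3 libraries of each type as points and their mean as a line; values under 0.05 TPM lie off the axis. The grey line marks 1 TPM. Kcnk6 stood at 117.3 TPM in microglia and under 1 TPM in all other types. Kcnf1 stood at 102.9 TPM in layer V neurons and 47.2 TPM in dentate gyrus granule cells, and its cerebellar libraries lie off the axis.

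Other genes linked to potassium channels were counted as well. Among these 12 is Tmem175, which is itself a potassium channel of lysosomes. Of the 12, all tested, 9 were higher and 1 lower in neurons than in glia, where 15.9% and 30.3% of all genes were called. Dpp6, a Kv4 partner, was higher by 3.49, and Abcc9, the regulatory subunit of the vascular ATP-sensitive channel, was lower by 2.03 on the log2 scale. In cerebellar granule cells 2 were higher and 3 lower than in the other neurons, shares near those of all genes (14.5% and 29.1%), led by Cntn2 (3.21), which anchors Kv1 channels on axons, and by Lrrc55 (-4.79), a BK partner. The counts, higher and lower, were 2 and 3 in dentate gyrus granule cells (against 17.0% and 8.59% of all genes). They were 1 and 1 in layer V neurons (against 17.3% and 9.21%) and 3 and 1 in interneurons (against 18% and 6.64%). In astrocytes against microglia they were 6 and 1, where 23.1% and 21.1% of all genes were called. With 12 genes, each of these counts rests on few calls.

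Some members lie side by side in the genome. In the GENCODE annotation of GRCm38, 10 pairs of members were neighbours among protein-coding genes, and 18 members were in such a pair. In the pairs Kcnj9 with Kcnj10 and Kcnj2 with Kcnj16, 1 gene was high in astrocytes and its neighbour was not. Kcnj9 and Kcnj10 are read away from each other on chromosome 1, with 11891 bases between them, and Kcnj9 was at 88.25 to 88.86 TPM in cerebellar granule cells and 12.8 to 19.2 TPM in astrocytes. Kcnj2 lies 38195 bases beyond Kcnj16 on chromosome 11, and it was highest in dentate gyrus granule cells (8.83 to 11.4 TPM), with 1.18 to 2.04 TPM in astrocytes. The neighbours were highest in different cell types in each of the 10 pairs, although some pairs held a gene under 1 TPM in every type. The pairs described above were picked because 1 gene was high in astrocytes and its neighbour was not.

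The promoter sequences of these 4 genes are shown because in each pair 1 gene was high in astrocytes and its neighbour was not. Each window runs from 250 bases before to 50 bases after an annotated start (RefSeq, GRCm38.p6), 5′ to 3′ on the strand of the gene, with every CG dinucleotide in capitals. Of the 93 members, 68 had such a window. Kcnj10 (chr1:172340960-172341259, plus strand) held 21 CG and Kcnj9 (chr1:172329273-172329572, minus strand) 5. Kcnj2 (chr11:111065914-111066213, plus strand) held 18 and the outermost of the 4 windows of Kcnj16 (chr11:110967783-110968082, plus strand) 3. The median over 17486 protein-coding genes was 13 and over the 68 members 11.2, and the astrocyte genes Kcnj10 and Kcnj16 lay on opposite sides of both medians.
Kcnj10: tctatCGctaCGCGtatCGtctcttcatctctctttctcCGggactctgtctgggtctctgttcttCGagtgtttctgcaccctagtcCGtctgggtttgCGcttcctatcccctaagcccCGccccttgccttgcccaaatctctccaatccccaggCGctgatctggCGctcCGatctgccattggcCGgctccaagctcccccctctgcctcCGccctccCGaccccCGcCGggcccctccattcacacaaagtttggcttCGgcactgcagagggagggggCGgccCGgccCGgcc
Kcnj9: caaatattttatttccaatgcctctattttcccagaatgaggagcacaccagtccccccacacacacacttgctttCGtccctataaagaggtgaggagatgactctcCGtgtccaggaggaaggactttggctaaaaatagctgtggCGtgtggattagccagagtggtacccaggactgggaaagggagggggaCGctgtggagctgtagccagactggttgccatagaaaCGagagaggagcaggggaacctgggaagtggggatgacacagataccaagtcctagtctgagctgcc
Kcnj16: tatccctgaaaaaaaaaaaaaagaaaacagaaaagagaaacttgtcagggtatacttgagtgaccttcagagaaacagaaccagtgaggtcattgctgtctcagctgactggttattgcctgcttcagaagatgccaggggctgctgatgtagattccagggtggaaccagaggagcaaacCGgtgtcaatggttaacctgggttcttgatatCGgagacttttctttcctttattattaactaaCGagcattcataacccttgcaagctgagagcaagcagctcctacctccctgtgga
Kcnj2: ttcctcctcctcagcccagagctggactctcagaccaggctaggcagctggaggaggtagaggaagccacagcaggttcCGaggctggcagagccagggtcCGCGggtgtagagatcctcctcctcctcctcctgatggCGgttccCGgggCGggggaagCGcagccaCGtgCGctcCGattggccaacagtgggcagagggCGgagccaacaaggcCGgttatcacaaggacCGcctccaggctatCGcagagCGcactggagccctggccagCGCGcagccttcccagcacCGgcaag
The TATAAA letters, on either strand, were in the window of Kcnj9 and not in those of Kcnj10, Kcnj2 or this window of Kcnj16. Another window of Kcnj16 (chr11:111019335-111019634) held them, and 14.8% of the protein-coding genes had them in a window.

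Transcript choice was compared among members with a mean of at least 5 TPM in at least 2 cell types. The leading transcript, the same 1 in all 3 libraries of a type, differed between cell types in 9 of 52 members (17.3%), against 1745 of 10680 genes (16.3%), so the members were close to the background. The largest change of share was in Kcnt2, from 84.0% ± 2.8 (SD, n = 3) for Kcnt2-202 in layer V neurons to 31.2% ± 8.8 in interneurons, where Kcnt2-203 led.

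In Kcnc2, transcript Kcnc2-201 held 70.1% to 72.1% of the TPM of the gene in interneurons and 29.4% to 30.4% in layer V neurons, where Kcnc2-203 held 50.4% to 55.1%. Kcnh1 was led by Kcnh1-203 in layer V neurons (60.8% ± 0.8) and by Kcnh1-201 in cerebellar granule cells (49.3% ± 2.2). Kcnk10 was led by Kcnk10-202 in cerebellar granule cells (68.9% ± 1.5) and by the shorter Kcnk10-201 in astrocytes (55.2% ± 1.9). In Kcnj3, Kcnj3-202 led in layer V neurons (74.0% ± 0.95) and Kcnj3-201 in dentate gyrus granule cells (46.4% ± 1.7). Of Kcna6, the leading transcripts were annotated as nonsense-mediated decay or as processed transcripts. Kcnip1 and Kcnab2 were also among these members, and the shares are estimates that kallisto divides among similar transcripts.

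**Figure D5:**
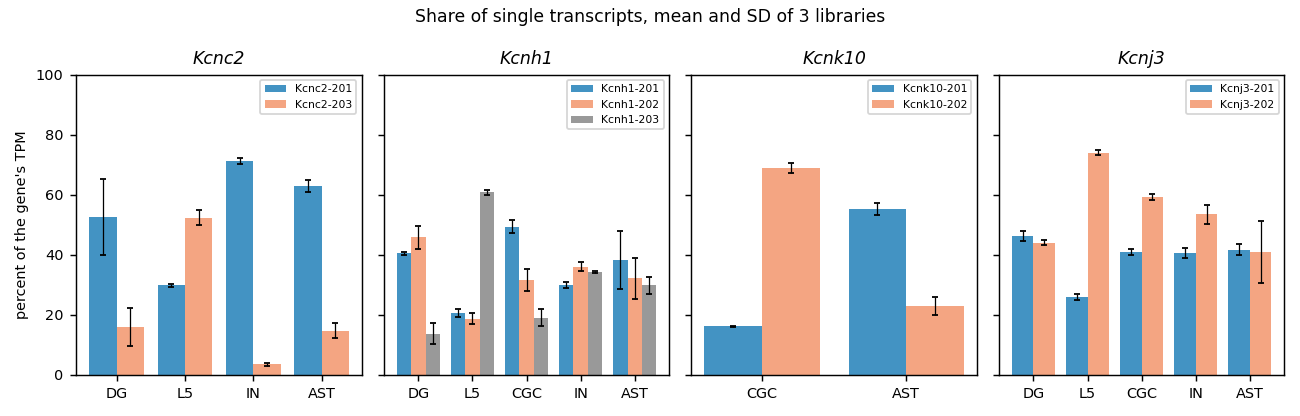
Share of the TPM of the gene held by single transcripts of Kcnc2, Kcnh1, Kcnk10 and Kcnj3 (panels) in the cell types where the gene reached a mean of 5 TPM; bars are means of 3 libraries and error bars SD. Kcnc2-203 held 52.2% in layer V neurons and 3.43% in interneurons.

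The repeated sequencing gives a measure of technical error. For the 4 replicates sequenced in both batches, the median size of the log2 difference between the 2 runs was 0.019 to 0.044 over members with at least 5 TPM, and the largest was 0.32 (Kcnu1 in layer V neurons). The labels give the layer V replicate a different sex in each batch, so its 2 runs may not be of 1 sample. Xist, a transcript of female cells, was at 2.451 TPM in its batch 1 run and 2.125 TPM in its batch 2 run. In the runs of the other repeated replicates Xist was at most 0.049 TPM. Whether the 2 runs are of 1 sample was not tested. Reads of 28 members could also be shared with a gene whose exons overlap theirs, and the sources used here do not say whether strand was used in counting. Kcnk4 and Kcnab2 (with Gm16334) overlap a gene on the same strand. The others overlap a gene on the opposite strand, among them Kcna6, Kcnab1, Kcnab3, Kcng2, Kcnh3, Kcnh7, Kcnip4, Kcnj3, Kcnj6, Kcnj9, Kcnj13, Kcnk1, Kcnk2, Kcnk3, Kcnma1, Kcnmb4, Kcnn1, Kcnn2, Kcnq5 and Kcnt2, and how many of their reads are shared was not tested.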

How the data were processed

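Per the labels, cutadapt 3.5 and kallisto 0.46.2 were used, and the authors deposited for each library a table of estimated counts and TPM per GENCODE M24 transcript. Here both were summed per gene, the estimated counts were rounded, and all 6 cell types were fitted together by edgeR 4.0.16 (R 4.3.3) with TMM scaling, filterByExpr and a quasi-likelihood test, with DESeq2 1.42.0 as an alternative. The scripts were tested on simulated data. Where a replicate had been sequenced in both batches, its batch 1 library was used, which left 18 of 22 libraries with 38270477 to 71440915 estimated counts. The p-values measure the spread between these libraries. The potassium channel genes, the partner and marker lists and the tests were chosen with earlier results of these data known. Members were named where they were among the 4 largest called changes of a comparison in either direction, the 6 members most clearly highest in a cell type (both at a mean of at least 5 TPM), the 3 most abundant of a type, the most abundant of a family or on a list of textbook channels, and others were named after their values were seen. Replicate numbers did not pair the samples (correlations of deviations from -0.100 to 0.109). Coordinates are those of GRCm38, and promoter windows are from RefSeq. Some members are counted but not reported here by name.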

Additional observations from a re-analysis of the deposited data

How the results depend on the processing

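There were 33 alternative settings, among them other TPM minima that apply only to the count of members with a different leading transcript. Of the values of 233 named gene results, 6925 kept their direction and side of the threshold, 108 newly passed it, 97 no longer passed it and 6 changed direction. There were 19 counts of members, called or with a different leading transcript, of which 541 values stayed within 1.5 times the main count and 13 did not. With an adjusted p alone and no minimum fold, the counts were 47 higher and 18 lower in dentate gyrus granule cells, 20 lower in layer V neurons, 20 higher in cerebellar granule cells and 21 lower in interneurons, and members highest in 1 type rose to 12 in dentate gyrus granule cells, 15 in layer V neurons and 14 in cerebellar granule cells. With edgeR's test against a minimum fold, 7 members were lower in astrocytes than in microglia, and 3 were highest in dentate gyrus granule cells and 4 in microglia. Within batch 1, which holds no interneurons or microglia, 10 were highest in layer V neurons and 14 in astrocytes. Within batch 1 Kcnip1 (-0.8) and Kcnk1 (-1.21) were lower in neurons than in glia. Within batch 2 Kcne2 was at 0.46 for neurons against glia and at -3.95 for astrocytes against microglia, and leaving out single libraries gave -3.33 to 0.07 for neurons against glia and -3.14 to 3.25 for astrocytes against microglia; both values that changed direction (0.07 and -3.14) came without Astrocytes replicate 1. Interneurons and the comparison of astrocytes with microglia could not be fitted within batch 1. With the replicate block, 34 members were higher and 24 lower in neurons than in glia, 30 and 11 in dentate gyrus granule cells, 35 and 10 in layer V neurons, 12 and 50 in cerebellar granule cells, 33 and 11 in interneurons and 39 and 11 in astrocytes against microglia. The shares over all genes under these settings are not given here, so these counts are not set against a background. The cause of these changes was not tested. Depth limits members under 1 TPM.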
